A study of Sus scrofa with 6 samples.

Results

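The 10 genes CDH1, CDH2, CDH3, CDH11, EPCAM, SPINT1, SPINT2, ESRP1, ESRP2 and GRHL2 encode cadherins and regulators of epithelial identity. They were chosen by symbol, and all 10 were found, each as 1 of the 20132 rows of the expression table. Total RNA of pig (Sus scrofa) cells was depleted of rRNA and sequenced with strand information, and levels are given as TPM, an abundance corrected for transcript length and library size. The 4 pgEpiSC libraries are stem cells of the pre-gastrulation epiblast, from epiblast of stage E10 (embryonic day 10). The 2 pEF libraries are porcine embryonic fibroblasts of fetal stage E30, and no transgene, treatment or genotype is given for either group. The series calls them biological replicates but does not name separate lines, embryos or cultures, so p-values measure the spread between these samples, which may be partly technical.

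Classical cadherins are calcium-dependent adhesion proteins that join cells of like kind. Their outer domains bind the same cadherin on the next cell, and their tails bind catenins that reach the actin cytoskeleton. CDH1 (E-cadherin) is the cadherin of epithelia and of the pluripotent epiblast, CDH3 (P-cadherin) a close relative, CDH2 (N-cadherin) the cadherin of neural and mesodermal cells, and CDH11 (OB-cadherin) a type II cadherin of mesenchyme. EPCAM is a surface protein of epithelia and pluripotent cells. SPINT1 and SPINT2 are Kunitz-type inhibitors of membrane-bound serine proteases. ESRP1 and ESRP2 are RNA-binding proteins that set epithelial splice forms, and GRHL2 is a grainyhead transcription factor that drives genes of epithelial junctions. In many tissues the passage from epithelium to mesenchyme is described as a switch from CDH1 to CDH2.

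The libraries differed in scale before any gene was considered. Column sums ran from 157288 to 320206 TPM in pgEpiSC and were 93556 and 145611 TPM in pEF. Sequencing depth is given only as an average over all libraries. Libraries 2 and 3 of pgEpiSC had 10250 and 9892 genes at 1 TPM or more, against 7149 and 7146 in libraries 1 and 4. For this reason differences are given as deposited and after median-ratio scaling, which divides each library by its median ratio to the mean profile. Scaling moved the median difference over the tested genes from 0.48 to 0.02 in log2(TPM + 1). The labels were checked against cell type markers. The 6 epiblast markers found summed to between 400.5 and 1709 TPM in pgEpiSC and to 0.0993 and 0.613 TPM in pEF. The 7 fibroblast markers found summed to between 1.91 and 6.33 TPM in pgEpiSC and to 469 and 1282 TPM in pEF. Endothelial, blood and keratinocyte markers summed to less than 1 TPM in each library. The keratinocyte sum held TP63 and DSG3 alone, as KRT5 and KRT14 were not found by symbol. Trophoblast markers, of an epithelial lineage of the same embryos, summed to 0.334, 3.47, 1.21 and 0.536 TPM in pgEpiSC libraries 1 to 4. They summed to at most 0.419 TPM in pEF. TFAP2C, CDX2 and ELF5 are named here after their values were seen. TFAP2C, counted below among epithelial transcription factors, was at 0.309 to 3.34 TPM in pgEpiSC, close to the sums there. CDX2 was at 0 in pgEpiSC library 2, the library with the largest column sum (320206 TPM). The 3 hypoblast markers found summed to between 1.51 and 3.79 TPM in pgEpiSC. The part of either lineage in the levels below was not tested.

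In these data the 2 cell types differed in CDH1 and CDH11, not detectably in CDH2. CDH1 and 6 epithelial regulators were higher in pgEpiSC, CDH11 was lower, and CDH2 and CDH3 were not called as deposited. Calls are at an adjusted p below 0.05 from limma on log2(TPM + 1), with Benjamini-Hochberg adjustment over the 10424 genes tested, those at 1 TPM or more in 2 libraries. Of tested genes, 27.4% were called, 18.0% higher and 9.43% lower. For 9 of the 10 genes no pEF library fell within the pgEpiSC range, which held for 49.5% of tested genes and, after scaling, for 70.5%. All 10 passed the filter on low values, but 8 were below 1 TPM in both pEF libraries and passed through pgEpiSC alone, so that their direction was set by the filter and the counts are a description. CDH2 and CDH11 were above 1 TPM in all 6 libraries. In bulk RNA, fewer cells of a type and less RNA per cell cannot be told apart.

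**Figure D1:**
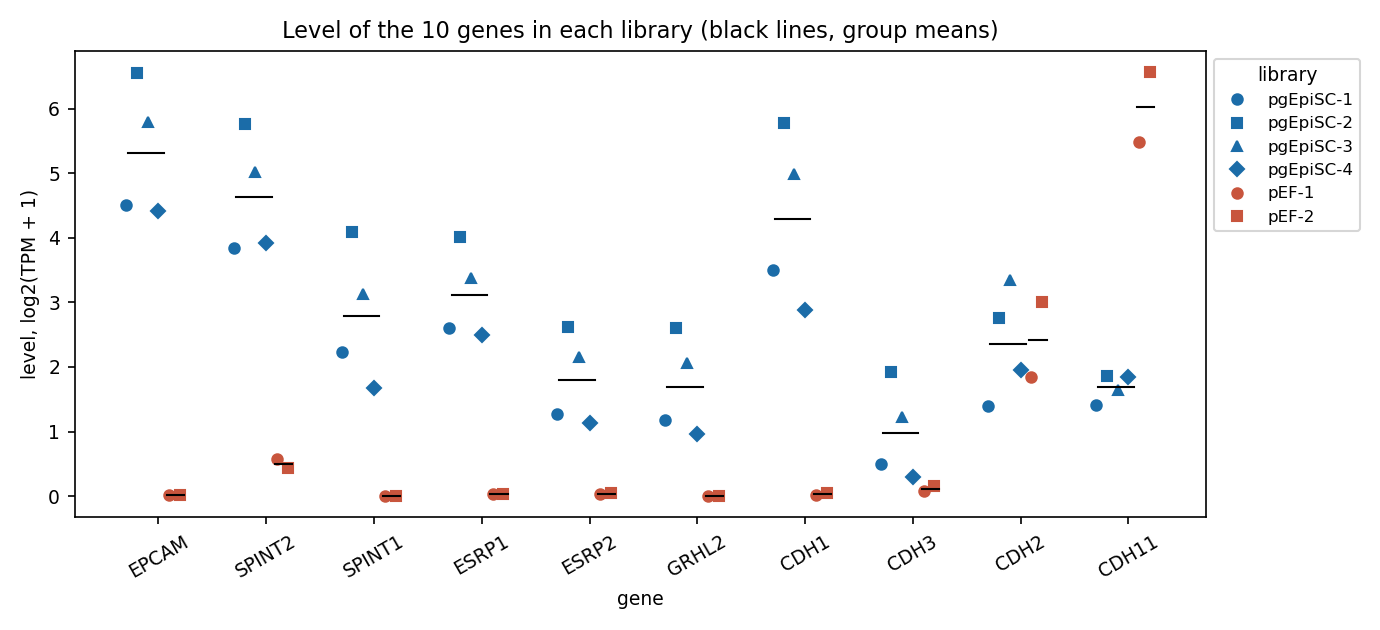
Level of each of the 10 genes in each library, as log2(TPM + 1) on the vertical axis, with 1 point per library (4 pgEpiSC in blue, 2 pEF in red) and black lines for group means. The pEF points of EPCAM, SPINT1, ESRP1, ESRP2, GRHL2 and CDH1 lie at or near 0, CDH11 is high in pEF, and the CDH2 points of the groups overlap.

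CDH1 (ENSSSCG00000025652) was at 10.3, 53.7, 30.8 and 6.39 TPM in pgEpiSC libraries 1 to 4 and at 0.00793 and 0.0340 TPM in pEF libraries 1 and 2. The lowest pgEpiSC library was thus far above both fibroblast libraries. The group means were 25.3 ± 21.8 (SD, n = 4) and 0.0210 ± 0.0184 TPM (SD, n = 2). The fitted difference in log2(TPM + 1) was 4.26 ± 0.61 (SE; limma, adjusted p = 8.51e-07), which is 3.77 above the median of all tested genes. It was called with each library left out in turn.

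CDH3 (ENSSSCG00000023162) followed the same order at a far lower level. It was at 0.405, 2.78, 1.35 and 0.226 TPM across pgEpiSC, against 0.0534 and 0.113 TPM in pEF. The groups did not overlap, but only libraries 2 and 3 of pgEpiSC exceeded 1 TPM. The difference was 0.87 ± 0.38 (SE) and was not called as deposited (limma, adjusted p = 0.0858). It was called after median-ratio scaling (0.64, adjusted p = 0.0306), and as deposited without pgEpiSC replicate 1 (1.03, adjusted p = 0.0370) or replicate 4 (1.10, adjusted p = 0.0341). Without pgEpiSC replicate 2 the deposited difference was 0.56 (adjusted p = 0.214). The scaled call was lost without pgEpiSC replicate 3 (adjusted p = 0.0706) or either pEF replicate (0.111 without replicate 1). CDH1 and CDH3 are neighbours in RefSeq's annotation of assembly Sscrofa11.1, with no other coding gene between them. ZFP90, the coding gene on the far side of CDH3, was at 1.03 to 2.89 TPM across pgEpiSC, against 0.861 and 1.85 TPM in pEF and was not called (0.32, limma, adjusted p = 0.670).

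CDH2 (ENSSSCG00000003722) was present in both cell types. It was at 1.62, 5.73, 9.19 and 2.85 TPM across pgEpiSC, against 2.58 and 7.04 TPM in pEF. Both pEF values lie within the range of the pgEpiSC libraries, of which library 3 was the highest and library 1 the lowest. The means were 4.85 ± 3.37 (SD, n = 4) and 4.81 ± 3.15 TPM (SD, n = 2). The difference was -0.07 ± 0.59 (SE; limma, adjusted p = 0.948), and its 95% confidence interval ran from -1.26 to 1.13, so that changes of about 1 log2 unit in either direction remain possible. Its sign followed the libraries used: the difference was 0.26 without pgEpiSC replicate 1, 0.07 without replicate 4 and 0.52 without pEF replicate 2, none of them called. After median-ratio scaling it was -0.61 (adjusted p = 0.123; 95% confidence interval -1.32 to 0.10). The scaled difference was called lower only when pgEpiSC replicate 3 was also left out (-0.78, adjusted p = 0.0401) or a replicate block was added (-0.97, adjusted p = 0.0221). With the block the difference rests on libraries 1 and 2 of each group, so libraries 3 and 4 of pgEpiSC do not enter it.

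CDH11 (ENSSSCG00000002795) was the cadherin of the fibroblasts. It was at 1.66, 2.65, 2.12 and 2.60 TPM across pgEpiSC, against 43.8 and 94.1 TPM in pEF. Every pgEpiSC library was well below both pEF libraries, and the 4 lay within 1.60-fold of each other. The difference was -4.34 ± 0.54 (SE; limma, adjusted p = 3.37e-08), and it was called with each library left out. After scaling, CDH11 was at 2.38, 1.23, 1.32 and 3.60 TPM in pgEpiSC libraries 1 to 4, and the summed 7 fibroblast markers were at 4.55, 2.30, 1.19 and 8.77 TPM. Libraries 1 and 4 were the upper pair of both. Against the pEF mean CDH11 stood at 2.70, 1.39, 1.49 and 4.08%, and the marker sum, which collagens dominate, at between 0.109 and 0.804%. Single markers differed: DCN (decorin, a matrix proteoglycan) stood at 7.84, 1.63, 1.59 and 16.3%, above CDH11 in all 4 libraries. LUM (4.18%) exceeded CDH11 in library 4 and PDGFRB (1.60%) in library 2. None of the 7 markers was at 0 in a pgEpiSC library, and the part of other cells in the CDH11 level was not tested.

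Because TPM is per length, the 4 cadherins can be set side by side within a library, and such shares do not depend on how the library was scaled. CDH1 made up 73.7, 82.8, 70.9 and 52.9% of their summed TPM in the pgEpiSC libraries in turn, but only 0.0171 and 0.0335% in pEF. CDH11 made up 11.9, 4.08, 4.88 and 21.5% in pgEpiSC and 94.3 and 92.9% in pEF. Among these 4, the leading cadherin was thus CDH1 in all 4 pgEpiSC libraries and CDH11 in both pEF libraries. CDH2 came second of the 4 in pEF, with 5.57 and 6.95%, and held 11.6, 8.84, 21.1 and 23.6% in pgEpiSC. Its share was higher in each pgEpiSC library than in either pEF library, although its level was not (exact two-sided permutation test of the share, 15 splits, p = 0.133). CDH3 held 1.88 to 4.28% in pgEpiSC and 0.115 and 0.111% in pEF. The shares of CDH1, CDH3 and CDH11 each gave p = 0.0667 in the same exact permutation test, the smallest that 4 against 2 libraries allow. CDH1 and CDH3 were below 1 TPM in both pEF libraries and passed the filter through pgEpiSC alone, so their separation is a description. The 4 shares add to a fixed total, so their p-values are not separate results. Beyond these 4, 17 other genes with CDH symbols were found. They held 7.06 to 11.0% of the summed TPM of both sets in pgEpiSC and 4.31 and 4.98% in pEF. All 17 were below the filter. The most abundant was CDH13, a cadherin without a cytoplasmic tail, at 0.179 to 0.640 TPM in pgEpiSC and 0.891 and 3.32 TPM in pEF. Desmosomal cadherins, described below, stand outside these sums. In pgEpiSC library 4, DSC2 (11.8 TPM) and DSG2 (10.5 TPM) exceeded CDH1 (6.39 TPM), whereas CDH1 exceeded both in libraries 1 to 3. In pEF, DSC2 (7.87 and 24.4 TPM) exceeded CDH2 and was below CDH11 in each library.

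**Figure D2:**
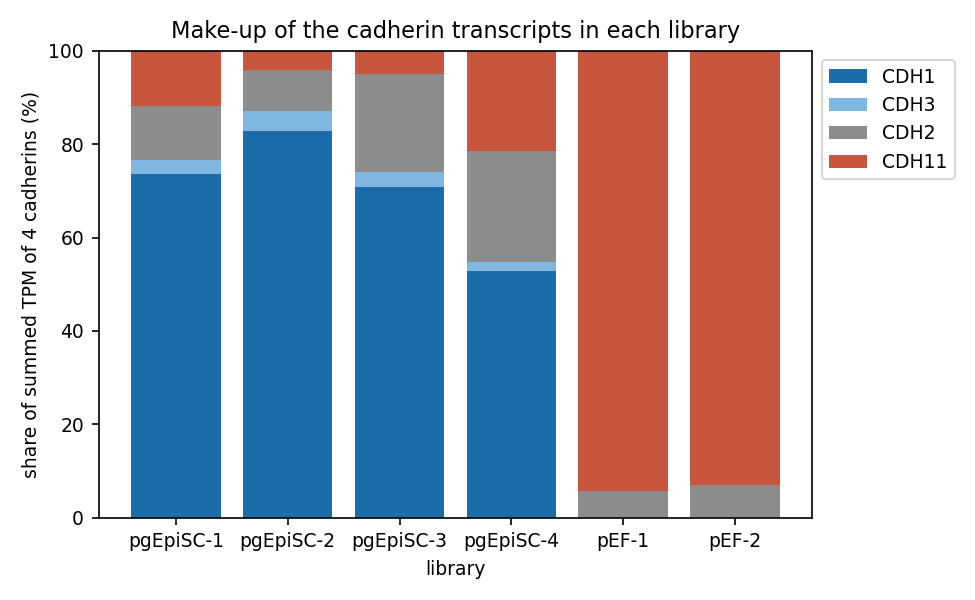
Share of CDH1, CDH3, CDH2 and CDH11 in their summed TPM (vertical axis, percent) in each of the 6 libraries. CDH1 takes 52.9 to 82.8% in pgEpiSC, whereas CDH11 takes 94.3 and 92.9% in pEF, and CDH2 is a minor part in all 6.

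The ratio of a pair of genes within a library is likewise free of scaling before a value is added for the logarithm, and 6 pairs were compared. CDH1 was 6.35, 9.37, 3.35 and 2.24 times as abundant as CDH2 in pgEpiSC libraries 1 to 4. In pEF the ratio was 0.00307 and 0.00483. With 0.01 TPM added to each gene, the mean log2 ratio was 2.20 ± 0.92 (SD, n = 4) in pgEpiSC and -7.25 ± 0.10 (SD, n = 2) in pEF. CDH1 over CDH11 stood further apart, at 3.03 ± 1.36 in pgEpiSC and -11.16 ± 0.13 in pEF. CDH1 over CDH3 was the steadiest cadherin pair in pgEpiSC, with CDH1 at 25.4, 19.3, 22.9 and 28.2 times the level of CDH3. In pEF, where both were close to 0, CDH1 was at 0.149 and 0.302 times CDH3. CDH3 over CDH2 was -2.34 ± 1.09 in pgEpiSC and -5.60 ± 0.35 in pEF, so that CDH2 exceeded CDH3 in each library. With 0.01 TPM added, for each of the 6 pairs the groups did not overlap, and each gave p = 0.0667 (exact two-sided permutation test, also 0.0667 when adjusted over the 6 pairs), the smallest this design allows. Each pair holds a gene that was below 1 TPM in both pEF libraries, so this separation is a description. For SPINT1 over SPINT2 it is set by the added value, since SPINT1 was at 0 in both pEF libraries. These differences depend on the value added where a gene is near 0. With 1 TPM in place of 0.01 TPM added, CDH1 over CDH2 differed by 4.32 in place of 9.45, CDH1 over CDH11 by 8.59 in place of 14.19 and CDH1 over CDH3 by 3.39 in place of 6.19, each again at the smallest p, whereas CDH3 over CDH2 differed by 0.93 (exact permutation p = 0.2).

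**Figure D3:**
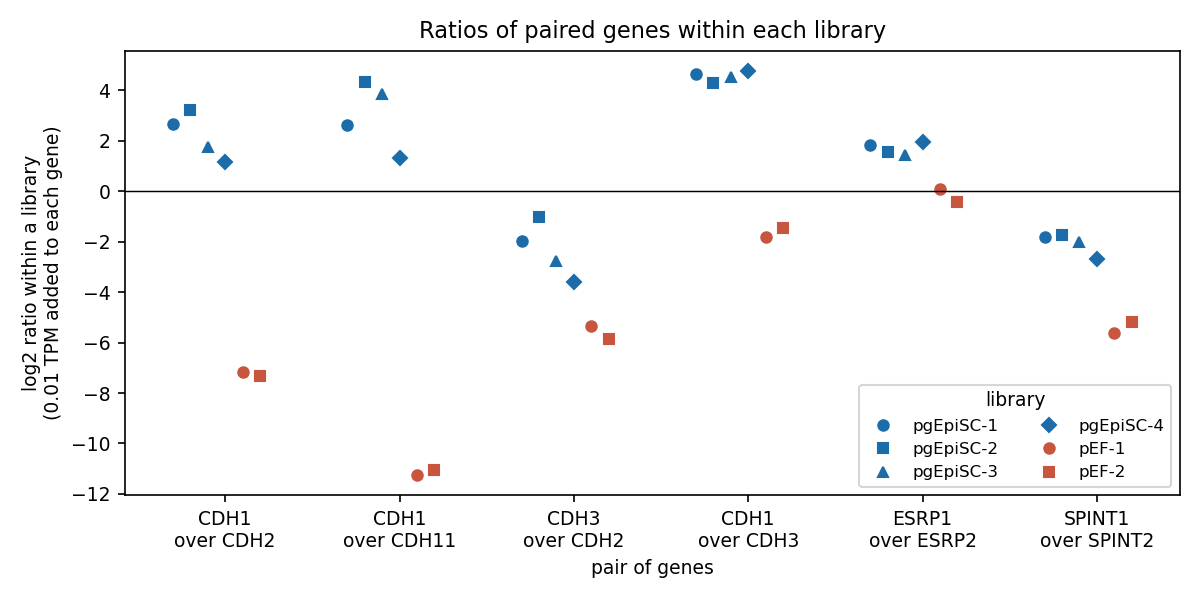
Within-library log2 ratio (vertical axis, 0.01 TPM added to each gene) of 6 pairs of genes, with 1 point per library (pgEpiSC in blue, pEF in red) and a line at equal levels. CDH1 lies above CDH2 and CDH11 in all 4 pgEpiSC libraries and below both in the 2 pEF libraries.

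EPCAM (ENSSSCG00000008429) was the most abundant of the 10 genes in pgEpiSC and nearly absent from fibroblasts. It was at 21.9, 93.1, 54.8 and 20.3 TPM across pgEpiSC, against 0.0107 and 0.0129 TPM in pEF. The groups stood far apart, with libraries 2 and 3 highest. The difference of 5.30 ± 0.57 (SE; limma, adjusted p = 8.62e-10) was the largest increase among the 10.

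The 2 protease inhibitors were both higher in pgEpiSC, and SPINT2 led. SPINT2 (ENSSSCG00000002954) was at 13.3, 53.3, 31.5 and 14.2 TPM across pgEpiSC, against 0.483 and 0.351 TPM in pEF. It was the only 1 of the 7 genes called higher that exceeded 0.1 TPM in a fibroblast library. Its difference was 4.14 ± 0.56 (SE; limma, adjusted p = 2.64e-07). SPINT1 (ENSSSCG00000004759) was at 3.72, 16.0, 7.74 and 2.19 TPM in pgEpiSC and was listed at 0 in both pEF libraries. Its difference in log2(TPM + 1), which for a gene at 0 depends on the value added, was 2.78 ± 0.59 (SE; limma, adjusted p = 0.000391). The call of SPINT1 was lost with either pEF library left out (adjusted p = 0.0982 without replicate 1 and 0.0830 without replicate 2). Within pgEpiSC libraries SPINT1 stood at 0.279, 0.300, 0.246 and 0.155 times SPINT2. The between-group difference of this ratio was 3.33 in log2 with 0.01 TPM added, 0.31 with 0.1 TPM added (exact permutation p = 0.4) and -1.35 with 1 TPM added. With SPINT1 at 0 in both pEF libraries, it is set by the added value and gives no direction.

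The 2 splicing regulators were also both higher in pgEpiSC, with ESRP1 the more abundant. ESRP1 (ENSSSCG00000006099) was at 5.06, 15.2, 9.42 and 4.63 TPM across pgEpiSC, against 0.0239 and 0.0213 TPM in pEF. ESRP2 (ENSSSCG00000035227) was at 1.41, 5.14, 3.46 and 1.19 TPM across pgEpiSC, against 0.0219 and 0.0323 TPM in pEF. Neither gene overlapped between the groups. ESRP1 differed by 3.09 ± 0.57 (SE; limma, adjusted p = 6.21e-05) and ESRP2 by 1.76 ± 0.48 (adjusted p = 0.00550). ESRP1 was at 3.58, 2.95, 2.73 and 3.89 times ESRP2 in pgEpiSC and at 1.09 and 0.658 times in pEF, where both were close to 0. The call of ESRP2 was lost without pEF replicate 1 (1.75, adjusted p = 0.184) or replicate 2 (1.76, adjusted p = 0.169). Gene-level TPM does not show which splice forms of their target genes were made.

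GRHL2 (ENSSSCG00000006060) was the least abundant of the 7 genes called higher. It was at 1.25, 5.05, 3.16 and 0.942 TPM in pgEpiSC and was listed at 0 in both pEF libraries. All 4 pgEpiSC libraries were thus above the fibroblasts, and library 4 was below 1 TPM. The difference was 1.70 ± 0.47 (SE; limma, adjusted p = 0.00609), and the call was lost without pEF replicate 1 or 2 (1.70 each; adjusted p = 0.188 and 0.177).

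After median-ratio scaling the 7 higher calls and the lower call of CDH11 remained, and CDH3 joined the higher ones, with a call that 3 of the 6 libraries each ended when left out. The scaled differences were 5.10 for EPCAM, 4.04 for CDH1, 3.77 for SPINT2, 2.88 for ESRP1, 2.57 for SPINT1, 1.55 for ESRP2, 1.50 for GRHL2 and -4.89 for CDH11, with limma adjusted p between 1.58e-06 and 0.000140. On this scale 57.9% of tested genes were called, 27.0% higher and 30.9% lower. The standard errors of these 8 shrank from between 0.47 and 0.61 to between 0.14 and 0.35. The size of a difference depends on the value added before the logarithm. With 0.1 TPM in place of 1 TPM, it was 8.44 for EPCAM, 7.25 for CDH1, 5.98 for ESRP1, 5.85 for SPINT1, 4.46 for GRHL2, 4.27 for ESRP2 and 2.33 for CDH3, and CDH3 was then called (adjusted p = 0.0114).

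**Figure D4:**
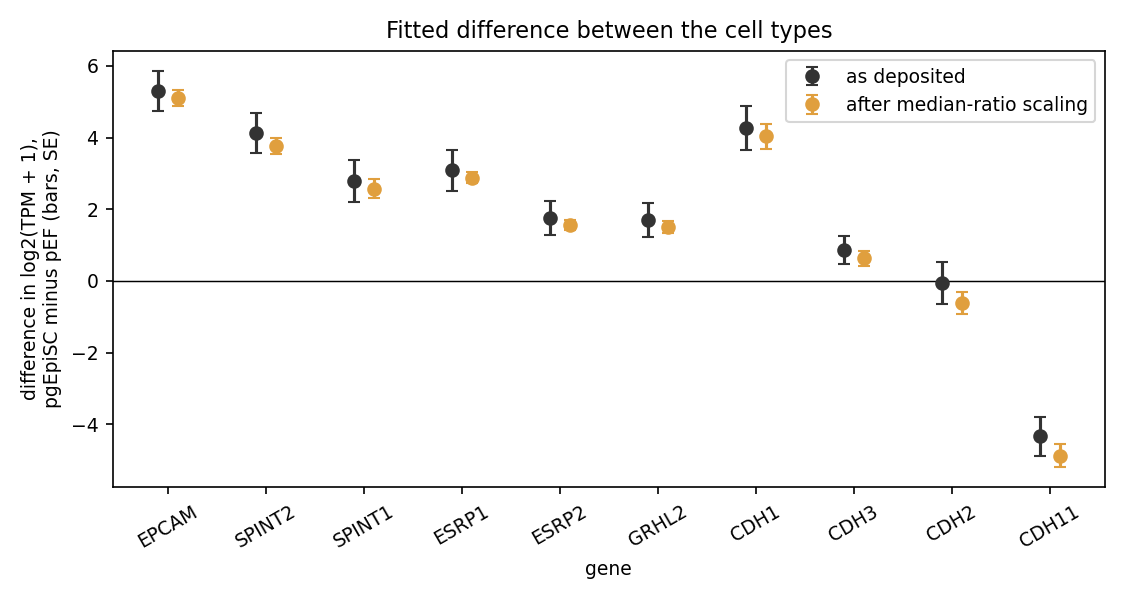
Fitted difference in log2(TPM + 1), pgEpiSC minus pEF (vertical axis; bars, SE), for each of the 10 genes as deposited and after median-ratio scaling, from 4 pgEpiSC and 2 pEF libraries. EPCAM has the largest increase (5.30 and 5.10), CDH2 lies near 0 as deposited (-0.07) and at -0.61 after scaling, and CDH11 lies at -4.34 and -4.89.

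By mean level in pgEpiSC the order was EPCAM, SPINT2, CDH1, ESRP1, SPINT1, CDH2, ESRP2, GRHL2, CDH11 and CDH3. Several neighbours in it were not separated in every library. SPINT2 exceeded CDH1 in 3 of 4 libraries, ESRP1 exceeded SPINT1 in 3, SPINT1 exceeded CDH2 in 2, GRHL2 exceeded CDH11 in 2 and CDH11 exceeded CDH3 in 3. EPCAM was above SPINT2, CDH1 above ESRP1, CDH2 above ESRP2 and ESRP2 above GRHL2 in all 4. In pEF the order began with CDH11, CDH2, SPINT2 and CDH3, the same in both libraries. ESRP2, ESRP1, CDH1 and EPCAM followed below 0.05 TPM without a fixed order.

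Among the pgEpiSC libraries the 10 genes did not vary alike. As deposited, the highest library was 8.41 times the lowest for CDH1, 12.3 times for CDH3, 7.29 times for SPINT1, 4.59 times for EPCAM, 3.27 times for ESRP1 and 1.60 times for CDH11, against a median of 3.48 over 9115 genes with a mean of at least 1 TPM in pgEpiSC. After median-ratio scaling that median was 1.65. ESRP1, SPINT2, ESRP2 and EPCAM were then within 1.24, 1.30, 1.45 and 1.54-fold, whereas CDH1 kept a 2.82-fold, CDH3 a 4.12-fold, CDH11 a 2.93-fold and CDH2 a 2.45-fold spread. The 4 cadherins and SPINT1 (2.45-fold) thus varied more than the other 5 genes, of which GRHL2 had the widest spread (1.80-fold). Scaled CDH1 was at 14.8, 25.0, 19.1 and 8.85 TPM in libraries 1 to 4, lowest in library 4 and highest in library 2. Scaled CDH11 ran the other way between these libraries, at 1.23 TPM in library 2 and 3.60 TPM in library 4. Scaled CDH2 was at 2.32, 2.66, 5.70 and 3.95 TPM and followed neither. The lines and passages behind these 4 libraries are not named in the labels, and no test was made of this spread. Over the tested genes libraries 1 and 4 were the closest pair, at a median absolute difference of 0.117 in scaled log2(TPM + 1). The other pgEpiSC pairs stood at 0.232 to 0.318. Whether the 4 libraries are equally separate samples was not tested.

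**Figure D5:**
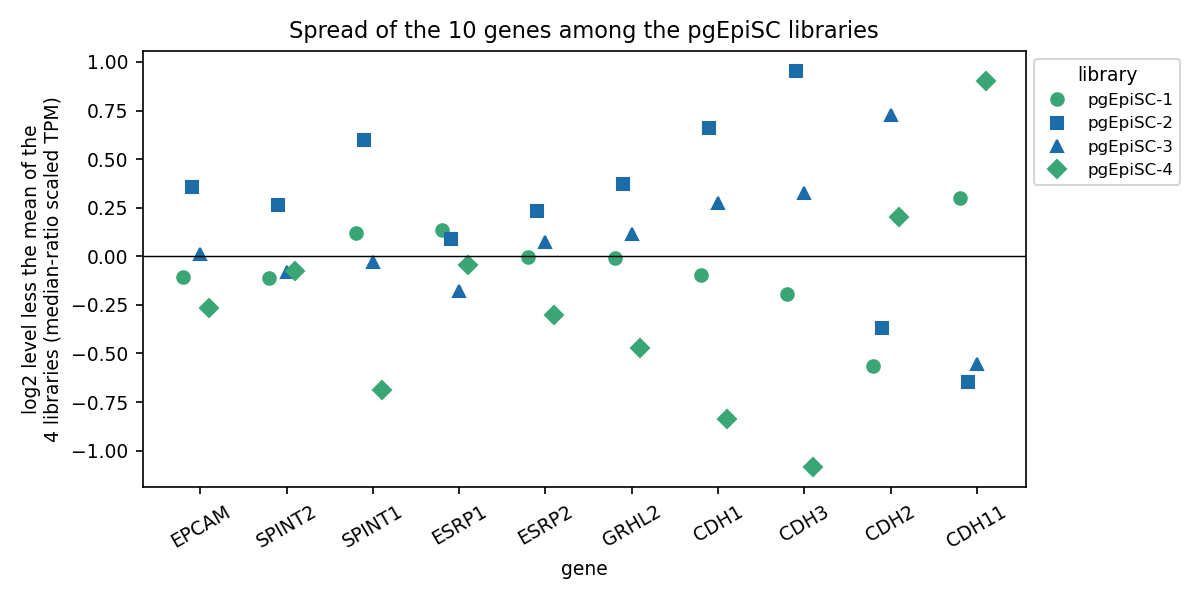
Log2 level of each gene in each of the 4 pgEpiSC libraries after median-ratio scaling, less its mean over the 4 (vertical axis), with libraries 2 and 3 in blue and libraries 1 and 4 in green. ESRP1 and SPINT2 lie close together, whereas CDH1 and CDH3 are lowest and CDH11 is highest in library 4.

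The genes nearest to CDH1 over the 6 libraries, by mean absolute difference in log2(TPM + 1), were NR6A1 (0.31), TRIM71 (0.31) and MAP7 (0.35). NR6A1, an orphan nuclear receptor, was at 8.91 to 34.4 TPM across pgEpiSC, against 0.201 and 0.219 TPM in pEF. TRIM71, a ubiquitin ligase of early embryonic cells, was at 6.15 to 35.9 TPM in pgEpiSC, with both pEF libraries at 0. MAP7, a microtubule-binding protein of epithelia, was at 5.93 to 32.5 TPM and at 0.00462 and 0.0276 TPM. Those nearest to CDH2 were ACVR1, an activin and BMP type I receptor (0.16), FBXW11, an F-box protein (0.22), and ANO10, a membrane protein of the anoctamin family (0.23). ACVR1 was at 2.25, 6.94, 7.56 and 2.62 TPM across pgEpiSC, against 2.68 and 6.80 TPM in pEF. This is a description of levels as deposited, where the libraries differ in scale and all genes of a library share its scale.

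The catenins that bind classical cadherin tails did not follow CDH1. CTNNB1 (beta-catenin) was at 83.5 ± 38.2 TPM in pgEpiSC (SD, n = 4) and 70.9 ± 21.0 TPM in pEF (SD, n = 2), CTNNA1 (alpha-catenin) at 21.4 ± 16.0 and 14.4 ± 6.48 TPM and CTNND1 (p120-catenin) at 15.1 ± 9.80 and 10.1 ± 5.14 TPM. These 3, named after their values were seen, were not called as deposited (limma, adjusted p = 0.835, 0.667 and 0.611) or after scaling (0.168, 0.370 and 0.448). Of 9 tested genes of catenins and the junctional plaque, 2 were higher, 1 was lower and 6 were not called, with a median difference of 0.24 against 0.48 for all tested genes. The counts of this list and of those below stand beside the shares over all tested genes. These were 18.0% higher and 9.43% lower as deposited, and 27.0% higher and 30.9% lower after scaling. AFDN (afadin, which links nectins to actin, and which passed the filter through pgEpiSC alone) was at 6.34 ± 5.08 and 0.733 ± 0.173 TPM, and PKP4, a p120-related plaque protein, at 17.4 ± 11.5 and 3.82 ± 1.47 TPM. VCL (vinculin, an actin-linking protein of adhesions) was lower, at 13.2 ± 10.2 and 48.3 ± 37.9 TPM (-1.88; -0.996, limma adjusted p = 0.475, without pEF replicate 2 and -2.76 without pEF replicate 1). Each of these 3 calls was lost with either pEF library left out, and those of AFDN and PKP4 also without pgEpiSC replicate 3.

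Desmosomal genes, whose cadherins are desmogleins and desmocollins, were counted next. Of 5 tested, 2 were higher and 3 were not called (median 1.09), and 7 more were below the filter. Both higher genes were below 1 TPM in both pEF libraries and passed the filter through pgEpiSC alone, so their direction was set by it. After median-ratio scaling 3 of the 5 were higher. DSG2 (desmoglein 2) was at 19.3 ± 12.3 TPM in pgEpiSC and 0.354 ± 0.311 TPM in pEF (3.70 ± 0.58 SE, limma, adjusted p = 3.83e-06), and DSP (desmoplakin) at 19.0 ± 16.4 and 0.711 ± 0.356 TPM (3.13 ± 0.62, adjusted p = 0.000147). The call of DSP was lost without pEF replicate 1 (adjusted p = 0.0925). DSC2 (desmocollin 2), named after its values were seen, was at 17.2 ± 10.7 and 16.1 ± 11.7 TPM and was not called. Of 5 tested nectins and related adhesion molecules, CADM4 (3.11 ± 1.99 against 0.412 ± 0.210 TPM) and CADM3 (0.885 ± 0.558 against 0.00306 ± 0.00159 TPM) were higher, both having passed the filter through pgEpiSC alone, and NECTIN3 was lower (median 0.83). After median-ratio scaling 3 of these 5 were higher and 1 was lower. NECTIN3 was at 10.1 ± 3.14 TPM in pgEpiSC and 49.0 ± 24.4 TPM in pEF (-2.11, adjusted p = 0.00178). That call was lost without pEF replicate 2, and the calls of CADM3 and CADM4 were lost with either pEF library or pgEpiSC replicate 3 left out, CADM3 also without pgEpiSC replicate 2.

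Of the 3 tested partners of EPCAM, CLDN7 and CD9 were higher and CD44 was lower. The claudin CLDN7, which binds EPCAM, was at 13.8, 87.6, 37.9 and 14.0 TPM across pgEpiSC, against 0.133 and 0.302 TPM in pEF (4.61 ± 0.59 SE; limma, adjusted p = 7.52e-08). The tetraspanin CD9 was at 37.6 ± 20.0 and 3.46 ± 2.60 TPM. The hyaluronan receptor CD44 was at 1.30 ± 0.797 and 16.7 ± 1.88 TPM. All 3 were called with each library left out, and CLDN7 passed the filter through pgEpiSC alone.

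Serine proteases held in check by SPINT1 and SPINT2 were tested beside them. Of 8 tested genes of membrane serine proteases and the HGF pathway, 5 were higher and 3 were not called (median 1.27), and 5 were below the filter. All 5 genes higher as deposited passed the filter through pgEpiSC alone, which set their direction. After median-ratio scaling 6 of the 8 were higher and 1 was lower. ST14 (matriptase, a target of SPINT1) was at 4.59, 27.1, 11.3 and 3.50 TPM in pgEpiSC, with a listed value of 0 in both pEF libraries (adjusted p = 7.37e-05, limma). PRSS8 (prostasin) was at 3.69, 17.5, 8.17 and 2.84 TPM and at 0.144 and 0.122 TPM in pEF. TMPRSS2, a further membrane serine protease, was at 1.02, 9.56, 2.18 and 0.662 TPM, and at 0.00508 TPM and 0 in pEF. HPN (hepsin) and F2RL1, a receptor that such proteases cleave, were the other 2. Without pEF replicate 1 none of the 5 was called (ST14 adjusted p = 0.0552), and without pEF replicate 2 only ST14 was.

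Splicing factors of the epithelial and mesenchymal states moved in both directions. Of 11 tested, 6 were higher, 2 were lower and 3 were not called (median 1.01), and 2 of the 6 passed the filter through pgEpiSC alone. After median-ratio scaling 6 were higher and 4 were lower. RBFOX2 (-1.38, limma adjusted p = 0.000519) and QKI (-1.49, adjusted p = 0.000709), named after their values were seen, were then lower as well. MBNL1 and MBNL2, the muscleblind proteins that favour differentiated splice forms, were lower, at 2.66 ± 1.09 against 21.4 ± 2.19 TPM for MBNL1 and 0.542 to 1.47 against 9.26 and 11.0 TPM for MBNL2 (limma, adjusted p = 0.000256 and 0.000505). SRSF1, a general SR protein, was at 106 ± 66.4 against 20.7 ± 9.02 TPM, PTBP2 at 13.7 ± 5.94 against 2.51 ± 1.35 TPM and KHDRBS3 at 5.57 ± 2.75 against 0.881 ± 0.445 TPM. Counts without pEF replicate 1 were 0 higher and 2 lower, without pEF replicate 2 they were 2 and 1, and without pgEpiSC replicate 3 they were 2 and 2.

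Of 5 tested epithelial transcription factors other than GRHL2, OVOL2 and GRHL1 were higher and 3 were not called (median 0.96), and 9 were below the filter. After median-ratio scaling all 5 were called higher, and 4 of the 5 had passed the filter through pgEpiSC alone, OVOL2 and GRHL1 among them. OVOL2, a zinc finger repressor of mesenchymal genes, was at 2.51, 16.0, 6.49 and 2.33 TPM in pgEpiSC, with a listed value of 0 in both pEF libraries. GRHL1 was at 0.482, 2.20, 1.06 and 0.403 TPM and at 0.00381 and 0.0122 TPM, below GRHL2 in each pgEpiSC library. Neither call held with either pEF library left out, and that of GRHL1 was also lost without pgEpiSC replicate 2 or 3. Among repressors of CDH1, ZEB1 was the only 1 of 4 tested that was called as deposited, having passed the filter through pEF alone, at 0.178, 0.116, 0.200 and 0.241 TPM in pgEpiSC and 3.44 and 8.41 TPM in pEF (-2.45 ± 0.44 SE; limma, adjusted p = 3.37e-05). After scaling ZEB1 and TCF4 were lower (-0.90, adjusted p = 0.00292 for TCF4) and TCF3 was higher (0.88, adjusted p = 0.00182), with TCF3 and TCF4 named after their values were seen. TWIST2, likewise named, was at 4.72, 8.82, 1.28 and 11.6 TPM in pgEpiSC and 9.62 and 9.23 TPM in pEF and was not called. The other listed repressors, named after the data were seen, were not tested. ZEB2 and TWIST1 were not found by symbol, and SNAI1, SNAI2 and SNAI3 were below the filter. Of 8 tested genes of cadherin shedding and gamma-secretase, 0 were called as deposited by limma and 5 were lower after scaling. Over all tested genes the lower share rose from 9.43% as deposited to 30.9% after scaling. APH1A, a gamma-secretase subunit and the most abundant of them, was 1 of these 5, at 12.0 ± 8.57 and 14.0 ± 4.32 TPM (-0.40, adjusted p = 0.617 as deposited; -1.02, adjusted p = 0.00470 after scaling).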

How the data were processed

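The authors deposited TPM values, per the file headers, for Ensembl pig genes in 6 columns. STAR 2.6.0c and kallisto 0.44.0 stand in the submitters' processing notes. What each did, and the genome build and annotation, is not given in the sources used here. TPM keeps no read depth, so no interval from read sampling is given, and the columns sum to well under 1000000.

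Gene IDs were paired with symbols by a name table (14062 of 20132 rows); 1 symbol stood on 2 rows, whose values were added. Values were fitted as log2(TPM + 1) with limma 3.58.1 under R 4.3.3, using group alone and a variance trend, on 10424 genes at 1 TPM or more in 2 libraries. A gene was called where its p after Benjamini-Hochberg adjustment was below 0.05. The fit was tested on simulated data. These had independent noise for each gene and library and no difference in scale between libraries, so that test does not cover such differences. Ratios and shares were compared by exact permutation over 15 splits, in Python 3.11.15 with pandas 2.3.3, numpy 2.4.6 and matplotlib 3.10.9.

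The members, lists and tests were chosen with earlier results of these data known. Beyond the 10 genes, the text names, per list, up to 3 called genes by absolute difference in each direction (the most abundant where none was called), and the 3 genes nearest to CDH1 and to CDH2. Genes named after their values were seen are marked as such, as are, here, the remaining called proteases and the coding neighbour ZFP90. Alternatives covered the value added, the filter, the scaling, the variance model, a replicate block and each library left out. Combinations with scaling, and leaving out pgEpiSC libraries 1 and 4 or 2 and 3, were added after seeing the data. No sequences were used here.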

Additional observations from a re-analysis of the deposited data

How the results depend on the processing

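The 8 calls among the 10 genes kept their direction under every alternative in which the gene was tested, and EPCAM, CDH1, SPINT2, ESRP1 and CDH11 also kept their calls there. For the 7 higher calls the kept direction is no test. Each of these genes lay below 1 TPM in both pEF libraries, which left it little room to turn. Members called higher numbered 7 as deposited, 4 with no filter, 4 of 5 tested at a mean of at least 5 TPM, and between 4 (without either pEF library) and 8 with 1 library left out. Members called lower numbered 1, or 2 (CDH11 and CDH2) after scaling without pgEpiSC replicate 3 and after scaling with a replicate block. The sign of CDH2 turned without pgEpiSC replicate 1 (0.26), replicate 4 (0.07) or pEF replicate 2 (0.52), and without pgEpiSC libraries 1 and 4 (0.63). With 1 library left out it ran from -0.65 to 0.52. The SPINT1 over SPINT2 difference turned to -1.35 with 1 TPM added, and was 0.31 with 0.1 TPM added. ESRP2 and GRHL2 were not called with 5 TPM added (0.60 and 0.57), and SPINT1, ESRP2 and GRHL2 were not called with no filter, where 18957 genes were tested.

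Over all tested genes, 1874 were higher and 983 lower. Higher calls numbered 967 with 5 TPM added, 787 with no filter, 1185 at a mean of at least 5 TPM, 2812 after median-ratio scaling, 3676 after quantile normalization, 5078 without pgEpiSC libraries 1 and 4, and 252 to 2270 with 1 library left out (252 without pEF replicate 1, 590 without pEF replicate 2 and 1057 without pgEpiSC replicate 3). Lower calls numbered 368 at a mean of at least 5 TPM, 3222 after median-ratio scaling, 2924 after rescaling to 1000000, 2726 after quantile normalization, 2503 without pgEpiSC libraries 2 and 3, 2624 after scaling with a replicate block, and 555 (without pEF replicate 2) to 1367 with 1 library left out. After scaling they were 2930, 3312, 3005 and 2998 without pgEpiSC replicates 1 to 4 and 2807 and 2737 without pEF replicates 1 and 2, beside 1699 to 2900 higher calls. Higher calls made up 65.6% of calls before median-ratio scaling and 46.6% after it. The cause of these shifts was not tested. With 1 pEF library left, the lone sample is taken to vary as the other group does.

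Replicate numbers are shared by 2 libraries of each group. Their deviations correlated across genes at 0.098 for number 1 and 0.17 for number 2, and 2 pairs do not show that the numbers pair the samples. With the replicate block 2204 genes were higher and 893 lower, and the counts among the 10 genes stayed at 7 and 1. Depth per library is not known, so no counting error can be given for values near 0 TPM in pEF.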
